A study of Homo sapiens with 8 samples.

Results

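HEK293T cells, an established human embryonic kidney line expressing large T antigen of SV40, were kept over night in medium lacking arginine or in a control medium holding every amino acid, and the 2 cultures were compared by ribosome profiling. Ribosome profiling sequences the short pieces of mRNA that ribosomes shield from nuclease, so the footprints on a coding sequence count the ribosomes found on it. Both cultures described first had been given cycloheximide, a drug that stops ribosomes from moving along the mRNA, at 100 µg/ml just before collection. Both media were built on the same DMEM with dialyzed serum, and differed only in whether L-arginine had been added back. The values are RPKM, footprint reads per kilobase of coding sequence scaled to the reads on coding sequences in the library, for each Ensembl transcript. There was 1 library for each medium, so no difference below has a replicate error or a test, and the intervals given are 95% exact intervals that cover counting error only. No total mRNA was measured in the files used here, so a change in the amount of an mRNA and a change in the number of ribosomes on each copy cannot be told apart.

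A gene entered the comparison where the files listed it in both libraries and its mean RPKM over the pair was at least 10, with its highest transcript taken in each library. This left 5074 genes of 5273 listed in both and of 12235 gene symbols listed in any of the 8 libraries of the series. Each gene was given a log2 ratio of (RPKM + 1) in arginine-deficient over sufficient medium, in which a log2 ratio of 1 is a 2-fold difference. ANKS6, at a mean RPKM of 10.01, was the last gene inside the limit with a log2 ratio of -0.89, and SON, at a mean RPKM of 9.998, was the first outside it with a log2 ratio of 0.06. The highest transcript was the same in both libraries for 5047 of the 5074 genes.

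Arginine is taken up through cationic amino acid transporters and is used for protein, creatine, polyamines and nitric oxide. When it runs short, uncharged tRNA activates the kinase GCN2, which phosphorylates eIF2 and lowers general initiation, while mRNAs such as ATF4 are translated better. ATF4 and its partners then switch on genes for amino acid transport, amino acid synthesis and tRNA charging, the programme called the integrated stress response. Arginine is also sensed by CASTOR1 and by the lysosomal SLC38A9, which report it to mTORC1, the kinase that promotes translation of ribosomal protein mRNAs.

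Read numbers were worked back from RPKM and coding length, and the 8 libraries held from 538222 to 6434043 reads on coding sequences. The sufficient library with cycloheximide held 2560280 reads and the arginine-deficient one 5010210. No mRNA with under 64 reads was listed in either (5 reads without cycloheximide), so the deeper library listed more genes, 8031 against 5466. The 5074 genes had a median of 175 reads in sufficient and 358 in arginine-deficient medium. Of the markers fixed for this line, NEFM, NEFL, VIM and CDH2 were among the 5074 genes, INA and KRT18 were listed in the arginine-deficient library only and PAX2, LHX1 and KRT8 in neither, while none of the 8 markers of blood, liver and muscle was listed.

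The sufficient library with cycloheximide stood apart from most of the others. Over 5044 genes listed in 7 libraries (the shallow methionine-deficient library with cycloheximide was left out), its rank correlation with the others ran from 0.73 to 0.91, and with the arginine-deficient library with cycloheximide it was 0.81. Its highest value, 0.91, was with the leucine-deficient library with cycloheximide. The methionine-deficient library without cycloheximide had the same range, with its lowest value against this sufficient library. The arginine-deficient library with cycloheximide had a rank correlation of 0.93 with its counterpart without cycloheximide and of 0.90 with the sufficient library without cycloheximide. These values are across genes, which share libraries and are not replicates. Every comparison of a deficient with the sufficient medium, with cycloheximide, has this one sufficient library as its denominator. The part of this library in the differences below was not tested. Values are therefore also given for the pair of libraries made without cycloheximide, which are other samples and hold 3139745 reads in sufficient and 1610707 in arginine-deficient medium. The names of their records point to removal of duplicate reads in the series without cycloheximide only, so levels between the series may also differ by processing, whose part was not tested.

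Of the 5074 genes, 844 (16.6%) were at least 2-fold higher in arginine-deficient medium and 1001 (19.7%) at least 2-fold lower. The median log2 ratio was -0.23, with quartiles of -0.85 and 0.60. At least 4-fold higher were 166 genes, and at least 4-fold lower 82. At least 8-fold higher were 9 genes, and no gene was 8-fold lower. Counting error alone is small beside many of these differences: of 781 higher genes with a recovered read count in both libraries, 586 had an interval wholly above 2-fold, and of 930 lower genes, 591 had one wholly past 2-fold.

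**Figure D1:**
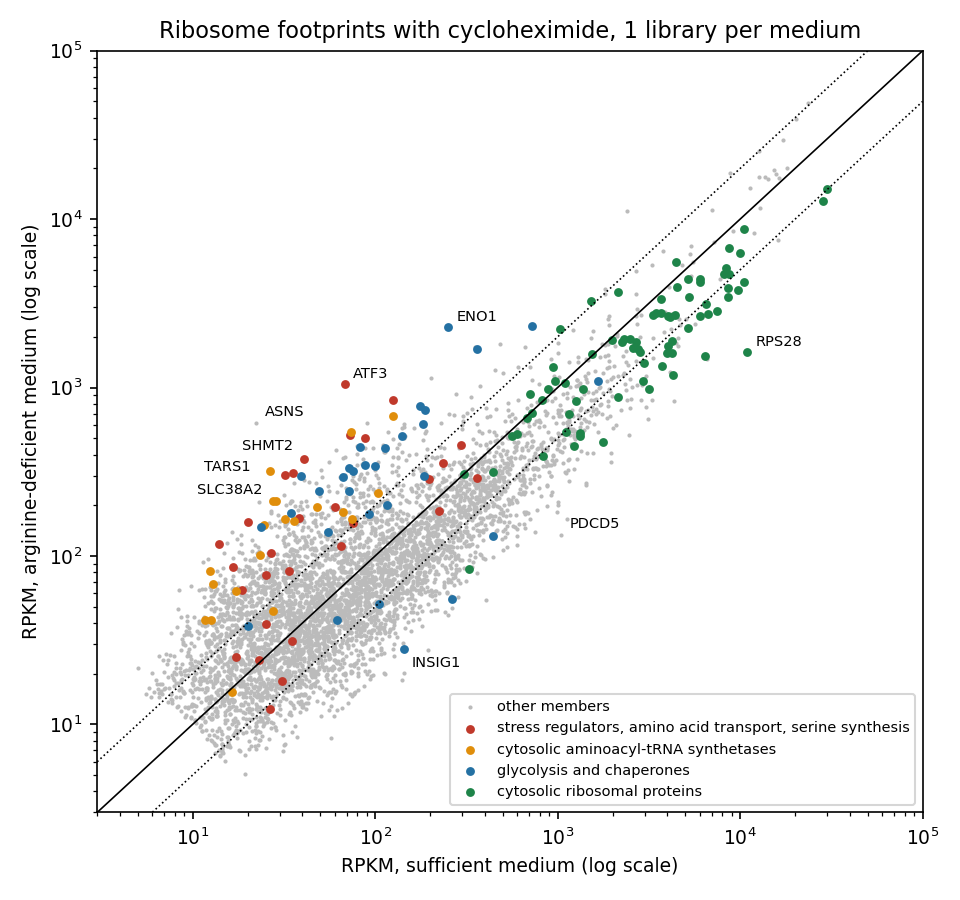
Each point is 1 of 5074 mRNAs, placed by its RPKM in sufficient medium (x axis, log scale) and in arginine-deficient medium (y axis, log scale), both with cycloheximide and 1 library each; the solid line is equality and the dotted lines 2-fold. Of the cytosolic tRNA synthetases (orange) 18 of 20 are at least 2-fold higher, stress regulators, transporters and serine enzymes (red) lie on both sides of the upper dotted line, and ribosomal proteins (green) lie mostly under equality, with 29 of 76 past the lower dotted line.

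ASNS, the enzyme that makes asparagine, had the largest log2 ratio of all. Its RPKM was 22.3 in sufficient and 618 in arginine-deficient medium, 27.7-fold higher (interval 22.7 to 34.3), and 68.0 and 689 without cycloheximide. ATF3, a transcription factor induced by ATF4, went from an RPKM of 68.3 to 1045, 15.3-fold higher (12.5 to 18.96), and from 47.8 to 434 without cycloheximide. TARS1, which charges the threonine tRNA, went from 26.7 to 318, 11.9-fold higher (10.1 to 14.2). In all 3 the arginine-deficient value was above the sufficient value in both series.

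The other 9 of the 12 largest log2 ratios were those of SLC38A2 (3.20), ENO1 (3.18), SHMT2 (3.18), SERINC1 (3.13), SLC3A2 (3.08), ALDH9A1 (3.02), SLC7A1 (2.99), SESN2 (2.92) and HSPA9 (2.90). SLC38A2, SLC3A2 and SLC7A1 belong to amino acid transporters, SHMT2 is the mitochondrial serine hydroxymethyltransferase, and SESN2 is a stress-induced inhibitor of mTORC1. Without cycloheximide 10 of the 12 were again at least 2-fold higher. The exceptions were ENO1, the glycolytic enolase, whose log2 ratio was 0.28 there, and ALDH9A1, an aldehyde dehydrogenase, at 0.70.

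Several of these genes, ASNS and ATF3 among them, are known targets of ATF4, which pairs with C/EBP proteins on a composite element. The letters TGATGNAA of that element were searched on both strands of the 300 bases around each RefSeq start site (250 before and 50 after, GRCh38.p14). They occur in 3.67% of 27305 promoters and in 1.65% of the 4120 promoters matched to the compared genes. Of the 12 genes with the largest log2 ratio, 11 had a promoter in the table and 5 of these (45.5%) held the letters: ASNS, ATF3, TARS1, SLC3A2 and SLC7A1. Over all genes at least 2-fold higher it was 21 of 709 (2.96%), with 10 of 146 (6.85%) of those at least 4-fold higher and 11 of 563 (1.95%) of those between 2-fold and 4-fold, against 7 of 787 (0.889%) of genes at least 2-fold lower. Among cytosolic tRNA synthetases it was 5 of 15 promoters, among mitochondrial ones 1 of 9 (YARS2), among chaperones 0 of 20 and among glycolytic enzymes 0 of 9. For stress regulators it was 2 of 9, for transporters 3 of 8 and for the serine and folate list 1 of 8. Of the 12 genes with the smallest log2 ratio, 10 had a promoter there and none held the letters. At a share of 1.65%, sets of 9 to 20 promoters mostly hold none, so these zeros set no contrast. A match is only a description of letters in this window, not a bound site. The stretches shown are those of genes at least 2-fold higher that held the letters, among the 12 largest and in the synthetase, transporter and serine lists, with the searched letters in capitals, 5′ to 3′ on the strand that reads TGATG.

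ASNS (chr7:97872458-97872487, minus strand, first base of the element at -68 from the start site): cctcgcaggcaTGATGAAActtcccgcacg
ATF3 (chr1:212565205-212565234, plus strand, at -191): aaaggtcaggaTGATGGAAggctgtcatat
TARS1 (chr5:33440956-33440985, minus strand, gene on the plus strand, at 3): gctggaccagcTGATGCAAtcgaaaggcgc
AARS1 (chr16:70289675-70289704, plus strand, gene on the minus strand, at -187): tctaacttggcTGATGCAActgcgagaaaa
IARS1 (chr9:92293692-92293721, plus strand, gene on the minus strand, at -13): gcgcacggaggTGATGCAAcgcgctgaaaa
MARS1 (chr12:57488053-57488082, minus strand, gene on the plus strand, at -4): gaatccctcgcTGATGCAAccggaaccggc
NARS1 (chr18:57621804-57621833, minus strand, at 15): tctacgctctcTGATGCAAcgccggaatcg
SLC7A1 (chr13:29595663-29595692, minus strand, at 8): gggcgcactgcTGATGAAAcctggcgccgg
SLC3A2 (chr11:62881725-62881748, minus strand, gene on the plus strand, at 38): ggagcTGATGTAAggagtcctgca
SLC38A1 (chr12:46266502-46266531, minus strand, at -4): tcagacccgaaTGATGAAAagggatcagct
MTHFD1L (chr6:150866346-150866375, plus strand, at -129): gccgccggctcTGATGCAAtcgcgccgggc

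The 5 synthetases and MTHFD1L share the same 8 letters, TGATGCAA, while ASNS, SLC7A1 and SLC38A1 share TGATGAAA. The genes shown were all at least 2-fold higher in arginine-deficient medium with cycloheximide, which was part of how they were chosen. Other stress genes with large log2 ratios, such as SESN2, DDIT4, TRIB3 and STC2, do not hold the letters in this window.

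Regulators of the integrated stress response were at least 2-fold higher for 6 of 9 genes in the comparison and lower for none, with a median log2 ratio of 1.24, and without cycloheximide 7 of the 9 were higher and none lower, with a median of 2.11. Over all genes 16.6% were higher and 19.7% lower with cycloheximide, and 4.3% and 7.04% without it. ATF4 itself, the factor that drives the response, had an RPKM of 76.0 in sufficient and 157 in arginine-deficient medium (2.07-fold, interval 1.77 to 2.42), and 251 and 700.2 without cycloheximide. SESN2 went from 20.1 to 158 and DDIT4, another inhibitor of mTORC1, from 87.5 to 499. TRIB3, a pseudokinase that restrains ATF4, went from 26.9 to 104, and without cycloheximide from 9.35 to 162. Thus TRIB3 had a log2 ratio of 1.91 with cycloheximide and of 3.98 without it.

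CEBPB and CEBPG encode the C/EBP partners of ATF4. Their log2 ratios were 0.80 and 0.55 with cycloheximide, under the 2-fold limit, and 2.54 and 1.40 without it. In both genes the sufficient RPKM was higher with cycloheximide, at 65.3 against 24.9 for CEBPB and 196 against 75.9 for CEBPG. XPOT, which exports tRNA from the nucleus, had a log2 ratio of 1.24 with cycloheximide and of 0.41 without it. PPP1R15B, the constitutive partner of the eIF2 phosphatase, was nearly level at 23.2 and 24.2 (log2 ratio 0.06).

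Secreted and death-related targets were mixed. STC2, a secreted glycoprotein of the stress response, went from an RPKM of 50.4 to 322 (6.38-fold, interval 5.28 to 7.77), and from 79.2 to 425 without cycloheximide. PMAIP1, the death protein NOXA, had 665 and 1742 with cycloheximide, and 102 and 418 without it. The effectors of mitochondrial cell death BAX and BAK1 were instead lower, with log2 ratios of -1.20 and -1.16 with cycloheximide and of -0.89 and -0.58 without it. MCL1, which opposes them, had log2 ratios of 0.30 and -0.03, and the death receptor gene TNFRSF10B 0.75 and 0.74.

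**Figure D2:**
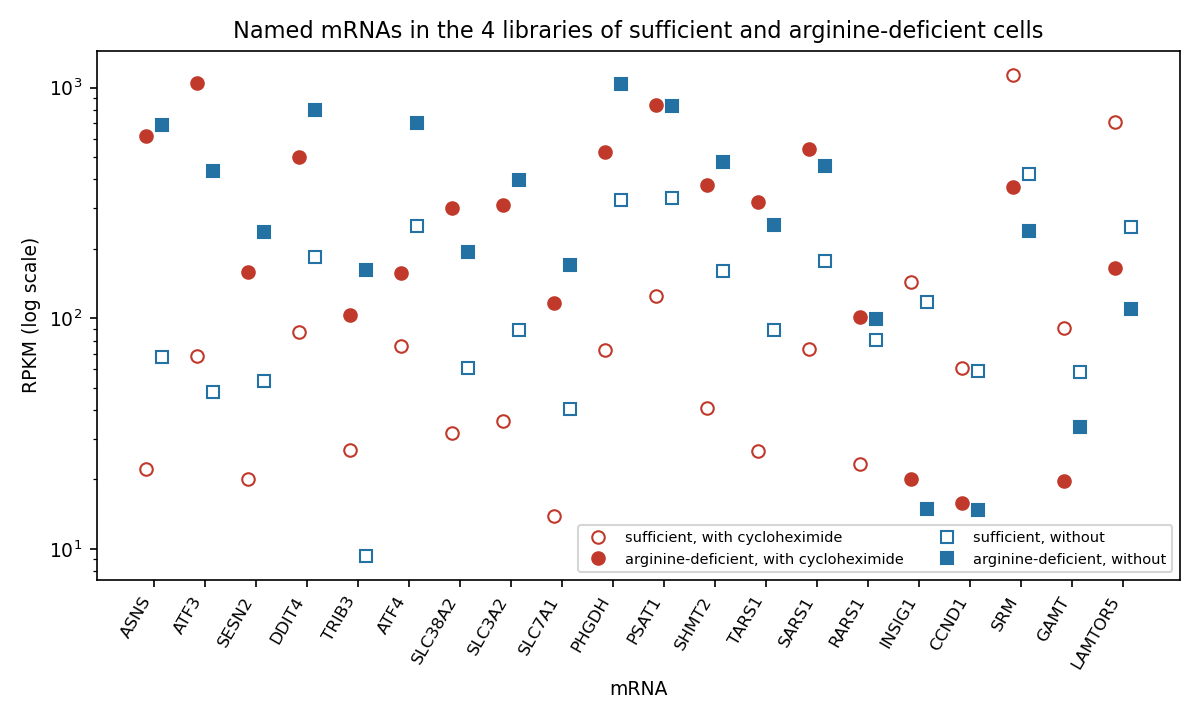
RPKM (y axis, log scale) of 20 named mRNAs (x axis) in the 4 libraries of sufficient (open) and arginine-deficient (filled) cells with cycloheximide (red circles) and without it (blue squares), 1 library each. Filled symbols lie above open symbols of the same colour from ASNS to RARS1 and below them from INSIG1 to LAMTOR5.

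Amino acid transporters were at least 2-fold higher for 6 of 9 genes and lower for 1, with a median log2 ratio of 1.71, and without cycloheximide 5 were higher and 1 lower, with a median of 1.11. The shares over all genes were 16.6% and 19.7% with cycloheximide, and 4.3% and 7.04% without it. SLC7A1, the main cationic transporter for arginine, went from an RPKM of 13.9 to 117 (8.44-fold, interval 6.59 to 10.96), and from 40.3 to 170.2 without cycloheximide. SLC38A2, a sodium-coupled transporter of neutral amino acids, went from 31.9 to 302, and its relative SLC38A1 from 38.5 to 169. SLC3A2, the heavy chain shared by several exchangers, went from 35.7 to 310.1, and from 89.4 to 397 without cycloheximide. All 4 were at least 2-fold higher in both series.

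SLC7A5 and SLC7A6, light chains that pair with SLC3A2, were not past 2-fold with cycloheximide. SLC7A5, which carries leucine and other large neutral amino acids, had an RPKM of 224 in sufficient and 186 in arginine-deficient medium, and SLC7A6, an arginine exchanger, had 30.8 and 18.2. Their log2 ratios were -0.26 and -0.73 with cycloheximide, and 0.39 and -1.16 without it. SLC1A5, the glutamine carrier, had a log2 ratio of 1.68 and SLC6A15, a carrier of branched-chain amino acids and proline, one of 1.71, although SLC6A15 stood at 0.10 without cycloheximide. SLC36A4, an amino acid carrier found on lysosomes and at the cell surface, was the 1 gene of the list that was at least 2-fold lower, at -1.06.

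Cytosolic aminoacyl-tRNA synthetases charge tRNAs for protein synthesis in the cytosol. Of 20 in the comparison, 18 were at least 2-fold higher and none lower, with a median log2 ratio of 2.10 against -0.23 over all genes, of which 16.6% were higher and 19.7% lower. After TARS1, the largest were IARS1 (RPKM 27.6 and 211), SARS1 (73.4 and 543), MARS1 (28.6 and 212) and AARS1 (12.5 and 81.9), each at least 6.54-fold higher, with log2 ratios without cycloheximide of 1.54, 1.36, 1.70 and 2.09. RARS1, which charges the arginine tRNA itself, went from 23.3 to 101 (4.34-fold, interval 3.58 to 5.30). The 2 genes under 2-fold were HARS1 at a log2 ratio of 0.75 and TARS3, a second threonyl enzyme, at -0.07.

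Without cycloheximide 10 of the 20 were at least 2-fold higher and none lower, with a median of 1.04. RARS1 was not among the 10, at an RPKM of 80.5 and 98.9 (log2 ratio 0.29). FARSA and KARS1 were at least 2-fold higher with cycloheximide, at 1.43 and 1.14, and stood at -0.21 each without it. Mitochondrial synthetases, which charge tRNAs for the few proteins made inside mitochondria, gave smaller values. Of 9, 3 were at least 2-fold higher with cycloheximide (RARS2, IARS2 and TARS2) and none without it, with medians of 0.95 and -0.09. The shares over all genes were 16.6% and 4.3%.

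Serine synthesis and one-carbon metabolism supply serine, glycine and folate units. Of 11 genes, 5 were at least 2-fold higher and none lower with cycloheximide, and the numbers were the same without it. Over all genes 16.6% were higher with cycloheximide and 4.3% without it. PHGDH, the first enzyme of serine synthesis, went from an RPKM of 73.1 to 525, PSAT1, the second, from 125 to 838, and SHMT2 from 40.8 to 378. MTHFD1 and MTHFD1L, which interconvert folate units, had log2 ratios of 2.30 and 1.57 with cycloheximide and of 1.45 and 1.23 without it. MTHFD2 had 0.63, and the thymidylate synthase TYMS -0.30.

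Besides ASNS, the aspartate and glutamate genes GOT2, GLUD1 and GPT2 were at least 2-fold higher with cycloheximide. Of these, GPT2, the mitochondrial alanine transaminase, gave nearly the same log2 ratio in the 2 series, 1.01 and 1.09. GOT2, the mitochondrial aspartate transaminase, had 2.21 with cycloheximide and 0.17 without it. GLUL, which makes glutamine, had 0.98 and -0.56.

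Of 8 genes that make or use arginine and proline, 1 was at least 2-fold higher and 2 lower, with a median of 0.04, where 16.6% and 19.7% of all genes were. Without cycloheximide 1 was higher and 1 lower (median 0.39), and relative to genes of like coding length and GC content 2 were higher and 1 lower (median 0.72). The shares over all genes were 4.3% and 7.04% without cycloheximide, and 13.8% and 9.08% relative to such genes. ASS1, which with ASL rebuilds arginine from citrulline, had an RPKM of 34.4 and 53.5 (1.55-fold, interval 1.25 to 1.94), and of 35.5 and 98.7 without cycloheximide, a log2 ratio of 1.45. ALDH18A1, the first step from glutamate to proline, went from 14.9 to 58.3 (3.91-fold, interval 3.14 to 4.93). PYCR1, a later enzyme of that path, had an RPKM of 295 in both media, and the cytosolic PYCR3 a log2 ratio of -1.60. ARG2, the mitochondrial arginase, had 0.85, and creatine kinase B (CKB) -0.03.

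GAMT, which completes creatine from the product of arginine and glycine, was lower, at an RPKM of 90.5 and 19.8 with cycloheximide (4.57-fold, interval 3.50 to 6.02) and of 58.6 and 33.7 without it. Polyamines are made from ornithine, a product of arginine. SRM, the spermidine synthase, was at 1136 and 371, and OAZ2, an antizyme that marks ornithine decarboxylase for destruction, at 107 and 39.8. AZIN1, which blocks antizymes, ran the other way, from 19.5 to 55.5, and from 29.8 to 72.4 without cycloheximide. ODC1, the decarboxylase itself, had log2 ratios of -0.40 with cycloheximide and -1.17 without it. In both series SRM, OAZ2 and ODC1 were lower in arginine-deficient medium and AZIN1 higher.

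The list of the mTORC1 pathway and its amino acid sensors had 17 genes in the comparison. The arginine sensors named above were not among them: CASTOR1 was listed in neither library and SLC38A9 only in the arginine-deficient one. In all, 16 genes of the list were listed only in the arginine-deficient library and 1 only in the sufficient one. These are not counted here. Of the 17, none was at least 2-fold higher and 6 were lower (median -0.53), where 16.6% and 19.7% of all genes were. The 6 were LAMTOR5 (log2 ratio -2.09) and LAMTOR1 (-1.41) of the lysosomal Ragulator scaffold, AKT1S1 (-1.74), RHEB (-1.61), the GTPase that activates mTORC1, EIF4EBP2 (-1.60), and SEH1L (-1.42) of the GATOR2 complex. Without cycloheximide 4.3% of all genes were higher and 7.04% lower. Of the 17, 1 was at least 2-fold lower there, LAMTOR5 at -1.18, and 1 higher. That gene was EIF4EBP1, which encodes the inhibitor of the cap-binding protein eIF4E: its RPKM was 780.1 and 629.8 with cycloheximide and 280.1 and 1127 without it. The median coding length of the list was 768 bases, against 1062 over all genes. Relative to genes of like coding length and GC content, 3 of the 17 were at least 2-fold lower, 1 was higher and the median was 0.03. The shares over all genes were then 9.08% lower and 13.8% higher.

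Ribosomal proteins of the cytosol have mRNAs that begin with a terminal oligopyrimidine tract under mTORC1 control. They were at least 2-fold lower for 29 of 76 genes (15 of 33 of the 40S and 14 of 43 of the 60S subunit) and higher for 2, where 19.7% and 16.6% of all genes were. Their medians were -0.71 and -0.60 with cycloheximide, and -0.33 and -0.23 without it. RPS28 had the largest difference, from 10931 to 1618, but 4966 and 5115 without cycloheximide. Mitochondrial ribosomal proteins and subunits of oxidative phosphorylation gave similar medians, -0.73 over 72 genes and -0.74 over 66 genes, which became -0.02 and 0.10 relative to genes of like length and GC content. On that scale 3 of 32 proteins of the 40S subunit were at least 2-fold lower and 4 higher (median -0.14). Of 43 proteins of the 60S subunit 2 were lower and 1 higher (median 0.11). Over all genes 9.08% were lower and 13.8% higher on that scale. Reads shared with near-identical copies were dropped, so values of ribosomal protein genes are uncertain.

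Elongation factors were at least 2-fold higher for 3 of 7 genes (EEF1A1, EEF1G and EEF2) and lower for none with cycloheximide (median 0.91), and EEF1D and EEF1B2 stood at 0.06 and 0.12. Of all genes 16.6% were higher with cycloheximide and 4.3% without it. Without cycloheximide 1 of 7 was higher (EEF1G, 1.46) and the median was 0.07. EEF1G had an RPKM of 484 and 1822 with cycloheximide but of only 23.0 and 65.2 without it. What lies behind this gap in level was not tested. EEF1A1, which brings charged tRNA to the ribosome, went from 203 to 1135 and EEF2, the translocase, from 229.9 to 616. Without cycloheximide EEF1A1 had 3764 and 5936 and EEF2 576 and 1148. Other initiation factors were at least 2-fold higher for 13 of 28 genes and lower for none with cycloheximide, while of 27 without it 0 were higher and 1 lower (EIF1AX, -1.24). EIF2S1, the eIF2 subunit that GCN2 phosphorylates, had an RPKM of 38.9 and 162 with cycloheximide and of 197 and 128 without it.

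**Figure D3:**
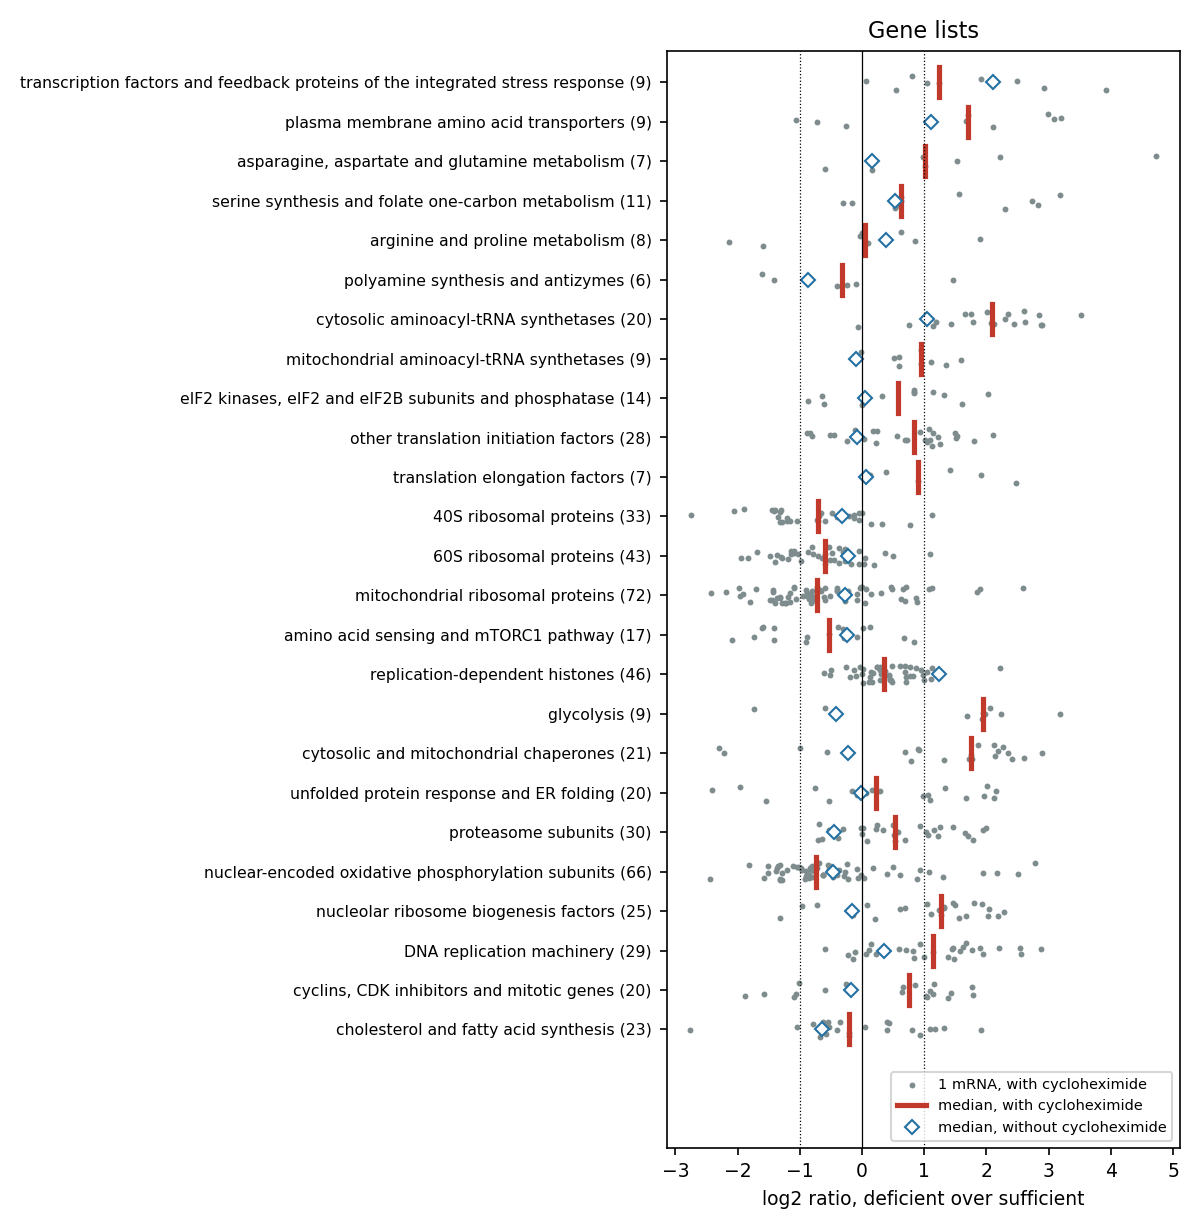
Log2 ratios of (RPKM + 1) in arginine-deficient over sufficient medium (x axis) for the members of 25 gene lists (y axis, number of members in parentheses): each dot is 1 mRNA with cycloheximide, red bars are medians with cycloheximide and open blue diamonds medians without it, 1 library a medium. The red bar and the diamond lie close for serine synthesis (0.63 and 0.52) and far apart for glycolysis (1.95 and -0.42) and chaperones (1.76 and -0.23).

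Glycolytic enzymes were at least 2-fold higher for 7 of 9 genes and lower for 1 with cycloheximide (median 1.95), where 16.6% and 19.7% of all genes were. ENO1 went from an RPKM of 250.5 to 2285, LDHB, a lactate dehydrogenase, from 360.2 to 1703 and GAPDH from 721 to 2328. Without cycloheximide the median was -0.42 and none of 8 was at least 2-fold higher. Of all genes 4.3% were, so a list of 8 can hold none. GAPDH had 5279 and 3799 without cycloheximide, and LDHB 2397 and 1369. For GAPDH the 2 sufficient libraries (721 and 5279) were farther apart than the 2 media of either series. PGAM1, the 1 lower gene, was lower in both series (-1.73 and -1.01).

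Chaperones showed the same split of medians. With cycloheximide 13 of 21 were at least 2-fold higher and 3 lower (median 1.76), and without it 1 was higher and 5 lower (median -0.23). The shares over all genes were 16.6% and 19.7% with cycloheximide, and 4.3% and 7.04% without it. CCT5, a subunit of the TCP1 ring that folds actin and tubulin, had log2 ratios of 2.41 with cycloheximide and -0.10 without it, and the mitochondrial HSPD1 had 2.19 and -0.08. HSPA9, the mitochondrial HSP70, was at least 2-fold higher in both series (2.90 and 1.02). The 3 lower genes were lower in both: DNAJB1 (-2.31 and -1.92), HSPB1 (-2.23 and -1.27) and HSPA8 (-1.01 and -2.72), a heat-shock co-chaperone, the small heat-shock protein and the constitutive cytosolic HSP70.

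Ribosome biogenesis and DNA replication factors are needed by growing and dividing cells. Of 25 nucleolar factors 16 were at least 2-fold higher (median 1.26), against 2 of 23 without it (median -0.17). NOP58, a small nucleolar RNP core protein, was higher in both (2.29 and 1.31), while NPM1, the abundant nucleolar chaperone, had 1.47 and -1.22. Of 29 replication genes 15 were at least 2-fold higher (median 1.14), and 4 of 29 without it (median 0.36), where the shares over all genes were 16.6% and 4.3%. CDC6, which loads the replicative helicase, had 2.88 and 1.20, and the helicase subunit MCM4 2.56 and 1.11.

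Cyclins did not share one direction. CCND1, which couples growth signals to entry into the cell cycle, was lower, with an RPKM of 60.9 and 15.8 with cycloheximide and of 59.2 and 14.7 without it. CCNE1, the cyclin of the next step, was at 41.6 and 13.3, and at 29.2 and 7.55. The mitotic kinase CDK1 was higher with cycloheximide (log2 ratio 1.78) and near level without it (0.21). JUN, a growth and stress response factor, was higher in both (2.01 and 2.67), and SRF, a regulator of actin genes, lower in both (-1.89 and -1.25).

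Histones of the replication-dependent clusters are short, GC-rich and rich in arginine. Of 46 in the comparison 4 were at least 2-fold higher and none lower with cycloheximide (median 0.36), and 31 of 44 were higher without it (median 1.24). Of all genes 16.6% were higher and 19.7% lower with cycloheximide, and 4.3% were higher without it. H4C11 was the largest, at 2404 and 11158 with cycloheximide and 592 and 3930.0 without it. Near-identical copies share reads, so values of single histone genes are uncertain.

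Cholesterol and fatty acid synthesis, under control of SREBP factors, had 4 of 23 genes at least 2-fold higher (ACLY, SC5D, SCD and NSDHL) and 2 lower with cycloheximide (median -0.21). Over all genes 16.6% were higher, near the share of this list, and 19.7% were lower. Without it none was higher and 9 of 23 were lower (median -0.64), where 7.04% of all genes were. INSIG1, which holds SREBP back and is itself an SREBP target, was lower by nearly the same amount in both series, at 143 and 20.2 (7.11-fold, interval 5.56 to 9.16) and at 118 and 14.9. MSMO1 and FASN had log2 ratios of -0.41 and -0.21 with cycloheximide and of -2.32 and -1.58 without it.

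The 12 smallest log2 ratios belonged to PDCD5 (-2.95), CIAO2B (-2.87), PCSK1N (-2.86), RPP25 (-2.77), INSIG1 (-2.77), RPS28 (-2.76), GAL (-2.75), TTYH3 (-2.66), UBE2S (-2.48), CNN2 (-2.45), ATP5F1D (-2.44) and MYDGF (-2.44). PDCD5, a small protein linked to cell death and to chaperone function, had an RPKM of 1042 and 134 (7.77-fold lower, interval 6.77 to 8.93) and of 499.8 and 248 without cycloheximide. GAL, the precursor of the peptide galanin, had 1119 and 165, and 383 and 122 without it. Without cycloheximide PDCD5, RPP25, INSIG1, GAL, TTYH3 and CNN2 were again at least 2-fold lower. The other 6 lay between -0.93 and 0.27, and for CIAO2B the highest transcript differed between the 2 libraries with cycloheximide.

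The 2 series can be set side by side for 4861 of the 5074 genes, with no library in common. Without cycloheximide 209 (4.3%) were at least 2-fold higher and 342 (7.04%) lower, and the SD of the log2 ratios was 0.64 against 1.05 with cycloheximide. Of 811 genes at least 2-fold higher with cycloheximide, 124 (15.3%) were so without it, 631 had a log2 ratio above 0 and 6 were at least 2-fold lower. Of 954 lower genes, 187 (19.6%) were at least 2-fold lower without it, 819 were below 0 and 6 were at least 2-fold higher. Across the 4861 genes the rank correlation of the 2 log2 ratios was 0.54, and 0.54 over the 3523 genes with one transcript in all 4 libraries. Genes are not replicates, and all values of a series rest on the same pair of libraries.

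**Figure D4:**
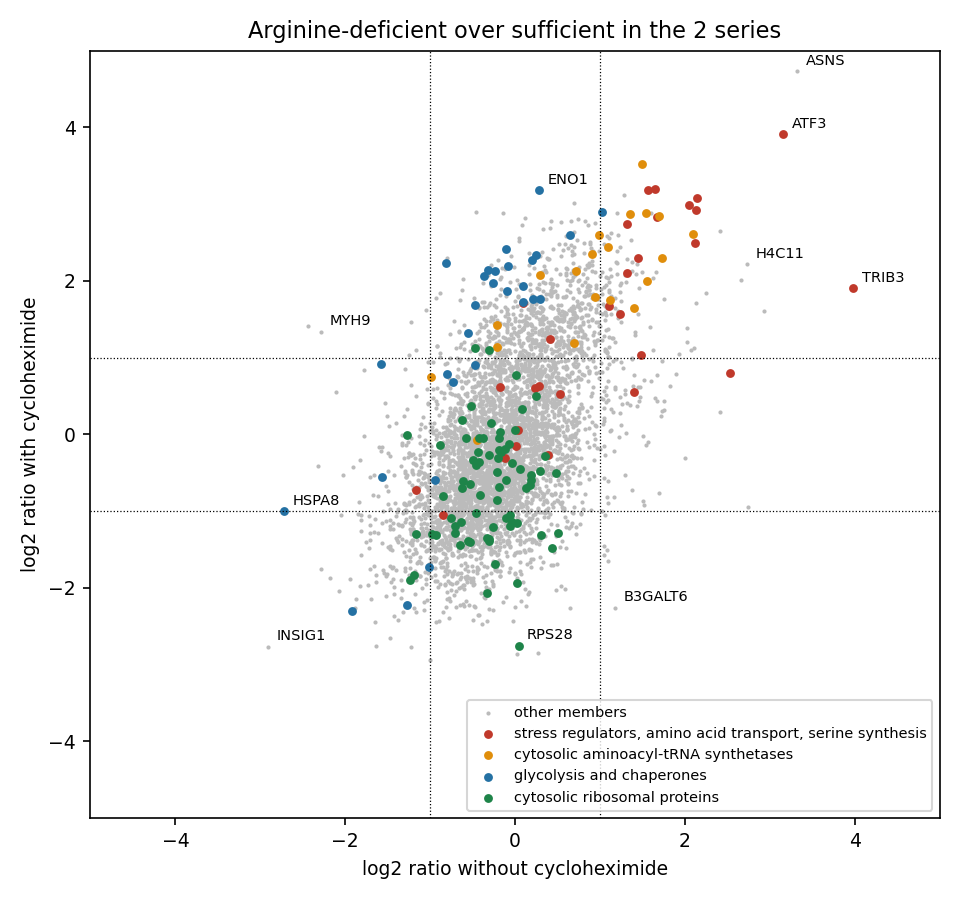
Log2 ratio of each of 4861 mRNAs in arginine-deficient over sufficient medium without cycloheximide (x axis) and with it (y axis), 1 library a medium and series; dotted lines mark 2-fold. ASNS, ATF3 and TRIB3 lie at the upper right and INSIG1 at the lower left, ENO1 and other glycolytic and chaperone mRNAs (blue) lie high near the centre of the x axis, and 12 mRNAs lie past 2-fold in opposite directions.

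The place of the sufficient library with cycloheximide among 7 libraries was also counted. Of 811 higher genes with a value in 7 libraries, the sufficient library with cycloheximide had the lowest value of the 7 for 726. It had the highest value of the 7 for 784 of 953 lower genes. Over all 4850 genes with 7 values it was the lowest for 1244 and the highest for 1580. Choosing genes by a ratio that has this library as its denominator favours such an outcome, so the counts are a description.

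The log2 ratio with cycloheximide followed the length and composition of the coding sequence. Its rank correlation with coding length was 0.47 over 4905 genes, and with the GC content at the third codon position (GC3) -0.39 over 4900 genes. Without cycloheximide these were 0.31 and -0.06. The decile of genes with the shortest coding sequences (75 to 408 bases) had a median of -0.72, with 2.77% at least 2-fold higher and 32.6% lower. The decile with the longest (2469 bases and more) had a median of 0.81, with 41.4% higher and 3.47% lower. The decile with the lowest GC3 had a median of 0.48 and that with the highest one of -0.95, where the values without cycloheximide were -0.02 and -0.20. Over the 1992 genes with at least 200 reads in both libraries the correlations were 0.40 and -0.29.

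The content of arginine codons gave smaller correlations. The share of arginine among codons had a rank correlation of -0.12 with the log2 ratio with cycloheximide and of 0.08 without it. Among the 6 arginine codons, AGA had the largest positive value with cycloheximide, 0.25, and CGC and CGG had -0.23 and -0.24. These 3 shares themselves follow GC3, with rank correlations of -0.68, 0.67 and 0.60. Without cycloheximide the values of AGA, CGC and CGG were 0.06, 0.07 and -0.01. The decile of genes richest in arginine had a median of -0.56 with cycloheximide and of -0.07 without it, against -0.31 and -0.37 in the poorest decile.

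**Figure D5:**
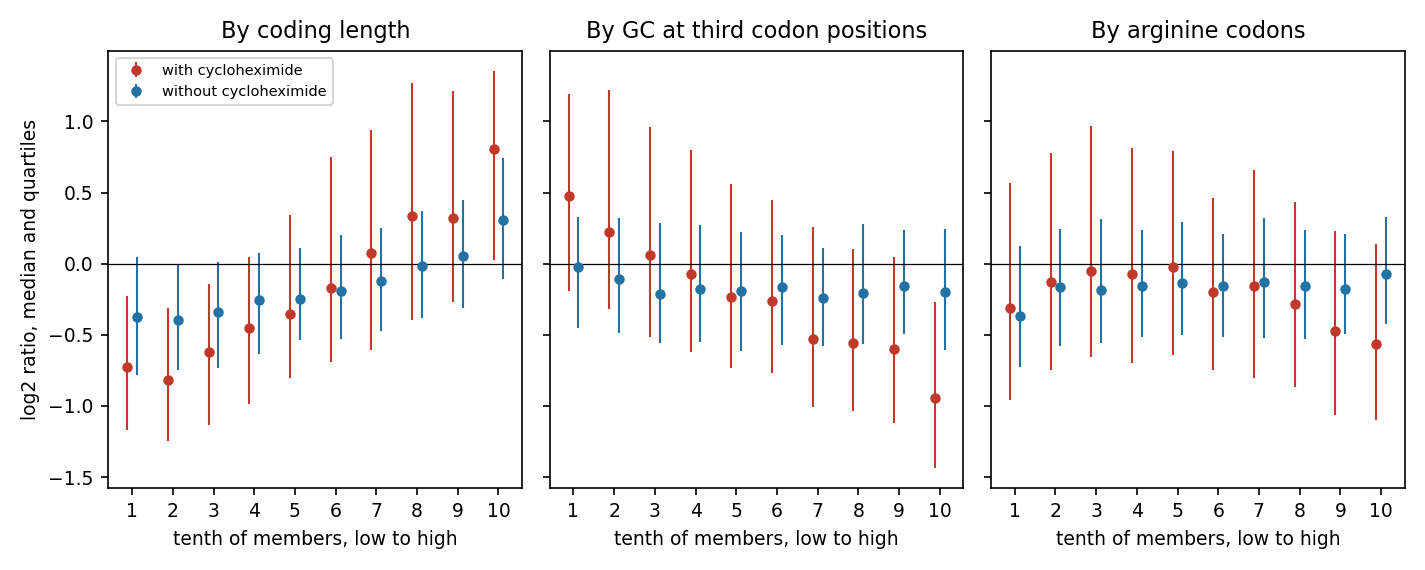
Median log2 ratio (points) with quartiles (bars) in arginine-deficient over sufficient medium (y axis) for genes sorted into deciles by coding length, GC at the third codon position and share of arginine codons (x axes, 1 lowest to 10 highest), with cycloheximide (red) and without it (blue), 1 library a medium. With cycloheximide the median goes from -0.72 to 0.81 with length and from 0.48 to -0.95 with GC, and without it from -0.37 to 0.30 and from -0.02 to -0.20.

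To set genes beside others of like length and composition, log2 ratios were centred on the median of genes in the same of 25 bins, 5 of coding length by 5 of GC3, a choice made after seeing these relations. Of 4900 genes with both properties, 677 (13.8%) were then at least 2-fold higher and 445 (9.08%) lower. Stress regulators had a centred median of 1.57 with 7 of 9 higher, cytosolic synthetases one of 1.60 with 16 of 19 higher, and transporters one of 1.40 with 5 of 9 higher. Histones had a centred median of 1.25 with 32 of 46 at least 2-fold higher, against 4 of 46 without centring. Glycolysis (2.08) and chaperones (1.23) still had high medians. BAX, BAK1, SRM, PYCR3 and OAZ2 were no longer past 2-fold lower, and AZIN1 (0.72), KARS1 (0.74), EPRS1 (0.78), SLC6A15 (0.73) and XPOT (0.27) no longer past 2-fold higher. ODC1 came to lie past 2-fold lower (-1.10), and CEBPB, CEBPG, ASS1 and GLUL past 2-fold higher, at 1.57, 1.26, 1.38 and 1.20. INSIG1 (-1.995) and LAMTOR5 (-1.48) stayed past 2-fold lower.

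Besides the 5074 genes, 2758 were listed only in the arginine-deficient library and 193 only in the sufficient one. With 64 reads as the listing limit of the other library, each gene with a known coding length (2665 and 187) has a lower bound of its fold difference. The bound assumes that an unlisted transcript had fewer reads than that, and it reached 2-fold for 450 genes of the first kind and 175 of the second. The deeper library reveals more genes, so these counts cannot be set against each other.

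CTH, which makes cysteine from cystathionine, had the highest bound: it was listed at an RPKM of 278 in arginine-deficient medium, at least 12.4-fold above the limit in sufficient medium, and went from 17.3 to 231 without cycloheximide. The next 9 were PLRG1, PDCD4, FERMT2, SOAT1, LRRC40, HSPA13, HADHB, PCK2 and EXOSC9, with bounds from 8.45-fold down to 5.65-fold. PCK2, the mitochondrial enzyme that makes phosphoenolpyruvate, went from 11.1 to 121 without cycloheximide. All 10 had a log2 ratio above 0 there, from 0.21 for SOAT1 to 3.67 for CTH. This was common to genes of this kind. Of 443 with a bound of at least 2-fold and a value without cycloheximide, 412 were above 0 and 154 at least 2-fold higher.

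Several stress genes were listed only in arginine-deficient medium. NUPR1, a stress-induced nuclear protein, had an RPKM of 434 (at least 4.27-fold) and went from 8.41 to 229.5 without cycloheximide. DDIT3, the transcription factor CHOP, had 66.2 (at least 1.53-fold), and its log2 ratio without cycloheximide was 4.24. PPP1R15A, the inducible partner of the eIF2 phosphatase, had 20.6 (at least 1.67-fold), with 2.96 without cycloheximide. The cystine carrier SLC7A11 (at least 5.35-fold), the transporters SLC1A4 (2.51-fold) and SLC43A1 (2.24-fold), the serine enzyme PSPH (2.79-fold) and the folate enzyme ALDH1L2 (3.94-fold) were also listed only there. All 5 were at least 2-fold higher without cycloheximide, with log2 ratios from 1.66 for PSPH to 3.29 for SLC7A11. Not all genes of these lists were: MTR, of the folate list, was also listed only there (at least 4.11-fold). Its log2 ratio without cycloheximide was 0.73. NFIL3, of the stress list, had a bound of 1.15-fold and a log2 ratio of 0.30 without cycloheximide.

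Among genes listed only in sufficient medium, CCDC85C had the highest bound, at least 8.41-fold. The next 9 were EN2, CCDC85B, COL1A1, ASGR1, RBM38, ZNF771, SLX9, KLF16 and NDUFAF8, down to 5.38-fold. Without cycloheximide 8 of these 10 had a log2 ratio below 0, of which CCDC85B (-1.10) and SLX9 (-1.59) were at least 2-fold lower, while COL1A1 stood at 0.13 and ASGR1 at 1.80. Of 161 genes of this kind with a bound of at least 2-fold and a value there, 40 were above 0 and 23 at least 2-fold lower.

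Leucine-deficient and methionine-deficient cells with cycloheximide were measured against the same sufficient library, so their ratios share its value and are given only side by side. ASNS had an RPKM of 22.3 in sufficient, 618 in arginine-deficient, 262 in leucine-deficient and 178 in methionine-deficient medium. DDIT4 had 87.5, 499, 622 and 2605, and SLC3A2 35.7, 310.1, 169 and 901. TARS1 had 26.7, 318, 187 and 141, and ENO1 250.5, 2285, 1416 and 1095. All 5 were lowest in sufficient medium, with the highest value in arginine-deficient medium for ASNS, TARS1 and ENO1 and in methionine-deficient medium for DDIT4 and SLC3A2. All 5 were named for a high ratio of arginine-deficient over this sufficient library. That choice favours a low sufficient and a high arginine-deficient value, so this order is only a description. For cytosolic synthetases the median log2 ratio over the sufficient library was 2.10 in arginine-deficient, 1.45 in leucine-deficient and 1.38 in methionine-deficient medium, the last over 12 genes that the shallow library listed.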

How the data were processed

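Ribosome-protected fragments of HEK293T cells were sequenced in 8 libraries, 1 for each combination of medium and cycloheximide. The authors deposited RPKM per Ensembl transcript. Per the submitters' processing notes and the methods, adaptors were trimmed, low-quality ends were removed, and reads were aligned to the human transcriptome (GRCh38) with Bowtie, with no mismatch and unique alignments only, so reads shared by near-identical genes were dropped. For trimming the notes name cutadapt, without a version, and the methods a Perl script and Trimmomatic. Which of them made these values is not settled. The deposited records of the series without cycloheximide are named for removal of duplicate reads, which the methods do not describe. RPKM is a share of a library: a change in a few abundant mRNAs moves the others.

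Groups were taken from the labels. Transcripts were matched to GENCODE release 44 for coding length and codons. RPKM multiplied by coding length was a whole number of steps, within 0.01 of a read, for 97.2 to 97.4% of transcripts in each library, which gave read counts. The exact interval of a fold is the binomial (Clopper-Pearson) interval of the read counts given both library totals. Folds are ratios of RPKM, log2 ratios use (RPKM + 1), and called means at least 2-fold on the latter scale. Promoters are from RefSeq (GRCh38.p14). The steps were tested on simulated data. With 1 library a condition no test was run. The members, gene lists and named genes were chosen with earlier results of these data known. Named were the 12 largest and 12 smallest log2 ratios, the 10 largest bounds on each side, and list members past 2-fold or belonging to the stress, transport, synthetase and amino acid lists; CKB, PPP1R15B and other values under 2-fold come from those. MYH9 and other genes past 2-fold in opposite directions in the 2 series, GAPDH as a level between libraries, and the genes set across 4 media were singled out after their values were seen. Alternatives were other minima, transcript sums, centrings and treatments of unlisted genes. The tools were matplotlib 3.10.9, scipy 1.17.1, pandas 2.3.3 and numpy 2.4.6 under Python 3.11.15. Some genes of the lists are not reported here.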

Additional observations from a re-analysis of the deposited data

Results flagged for a closer look

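Of 4861 genes with a value in both series, 12 were at least 2-fold apart between the media in opposite directions with and without cycloheximide, which is why they are given here. The difference between the series was not tested, since each value rests on 1 library a medium. Higher with cycloheximide and lower without it were MYH9 (log2 ratios 1.34 and -2.29) and MYH10 (1.41 and -2.44), the heavy chains of nonmuscle myosin II. The same order was seen for NPM1 (1.47 and -1.22), the co-chaperone DNAJA2 (1.62 and -1.04), the sterol enzyme NSDHL (1.10 and -1.17) and the helicase DDX23 (1.04 and -1.24). In all 6 the sufficient level was lower with cycloheximide than without it, for example 13.6 against 160.4 RPKM for MYH9.

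Lower with cycloheximide and higher without it were H2AX (-1.58 and 1.04), a histone variant, HES4 (-1.65 and 1.10), a transcriptional repressor, HOXA3 (-1.06 and 1.06), a homeobox factor, B3GALT6 (-2.26 and 1.18), a galactosyltransferase, PEDS1 (-1.51 and 1.09), and the transcript ENST00000458208 (-1.46 and 1.04), for which no gene symbol was used. NSDHL and HOXA3 were represented by different transcripts in the series. Some levels without cycloheximide were low, with a sufficient RPKM of 2.35 for PEDS1, 5.34 for ENST00000458208 and 5.74 for HOXA3. PEDS1 had 6.11 in arginine-deficient medium there. The minimum mean RPKM of 10 was set only on the pair with cycloheximide. At such low levels the 1 added to each RPKM weighs on the log2 ratio, so the rises of these genes are uncertain.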

How the results depend on the processing

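No paired analysis was possible because each condition had 1 library, numbered 1. Under the 10 alternatives no named gene past 2-fold changed direction. Medians of several lists changed sign, in bins those of the mTORC1 pathway (0.03), oxidative phosphorylation (0.10), autophagy (0.14), growth transcription factors (0.55, of 3 genes), transsulfuration (-0.02) and the 60S subunit. With a minimum mean RPKM of 50, 471 genes were at least 2-fold higher and the median log2 ratio was -0.39. With at least 200 reads in both libraries (1992 genes), 173 were higher and 498 lower, the median was -0.51, and 2 stress regulators and 7 cytosolic synthetases were higher, since fewer genes were left. Centred on the median, 630 genes were lower, the median was 0 by construction, and 2 proteins of the 40S subunit were higher and 8 of the 60S subunit lower. With unlisted genes at 0 (6224 genes), 1851 were higher, 10 stress regulators among them, and the median was -0.013. Over the 4258 genes whose reads, scaled to the shallower library, still reached the listing limit, the median was -0.11. Centred in bins of coding length and GC3, an alternative chosen after seeing the data, 445 genes were lower and the median was 0. There the cytosolic synthetases had a median of 1.60, the 40S subunit had 4 proteins higher, 3 lower and a median of -0.14, and the 60S subunit had 2 lower and a median of 0.11. The pseudocount, the absence of a minimum, summed transcripts and a shared top transcript left each count within 1.5 times, and summed transcripts moved the log2 ratios of PDCD5 and GAMT beyond their counting intervals, and those of CIAO2B and PHGDH, which have none, by more than 0.1, with no change of side. Of the named genes, centring on the median moved 6 of 92 across 2-fold (ARG2, BAK1, BAX, CEBPB, GLUL and SLC36A4) and the bins 16 of 90. Depth limits genes of low level: at 64 reads a fold has a wide counting interval, and the spread between cultures was not measured.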

Other observations

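Proteasome subunits were at least 2-fold higher for 11 of 30 genes and lower for none with cycloheximide (median log2 ratio 0.53), while of 29 without it 0 were higher and 1 lower (PSMA1, -1.51), with a median of -0.45. The shares over all genes were 16.6% and 19.7% with cycloheximide, and 4.3% and 7.04% without it. The largest was PSMC2, an ATPase of the base, at an RPKM of 31.9 and 129 with cycloheximide and of 155 and 149 without it. Genes of folding in the endoplasmic reticulum did not share one direction with cycloheximide. The chaperone HSP90B1 had 50.1 and 226 and the lectin CANX 144 and 584 (140 and 249, and 441 and 446, without it), while the small factors SDF2L1 (265 and 48.8) and MANF (937 and 239.5) were lower. HERPUD1, a stress-induced membrane protein of that compartment, was at least 2-fold higher in both series, at log2 ratios of 1.10 and 1.63, and SDF2L1 and CRELD2 lower in both.

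Factors that rescue stalled ribosomes or survey mRNAs were at least 2-fold higher for 4 of 12 genes and lower for none with cycloheximide, and for 0 of 12 without it. UPF3B, a factor of nonsense-mediated decay, had an RPKM of 18.3 and 134 with cycloheximide, and 46.5 and 78.7 without it. Autophagy genes (4 of 16 higher, none lower, median -0.23), tRNA modification (6 of 18 higher, 2 lower, median -0.32) and arginine-serine splicing proteins (4 of 20 higher, 2 lower, median 0.22) had these values with cycloheximide, and none of the 3 lists had a gene at least 2-fold higher without it. Over all genes 16.6% were higher and 19.7% lower with cycloheximide, and 4.3% were higher without it, so lists this small can hold none. TAX1BP1 and SQSTM1, autophagy receptors, had log2 ratios of 2.14 and 1.78 with cycloheximide and of 0.69 and 0.57 without it. TRMT112, the partner of several methyltransferases, was lower in both series (-1.23 and -1.21).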
